A study of Mus musculus with 4 samples.

Results

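Chemokines are small secreted proteins that guide migrating cells along a gradient, and fibroblasts release several of them into the surrounding tissue. The group described here holds 10 chemokine genes of mouse embryonic fibroblasts (MEF): Ccl2, Ccl5, Ccl7, Ccl20, Cxcl1, Cxcl5, Cxcl12, Cxcl14, Cxcl16 and Cx3cl1. They were taken by name from the 24933 genes of the expression table, each gene represented by the annotated transcript with the longest gene body, and all 10 had a row. Expression came from total RNA sequencing of wild-type (Hmga2+/+) and knock-out (Hmga2-/-) MEF, each with water (Ctrl) or with recombinant human TGFB1 at 10 ng/ml over 24 h. HMGA2 is a chromatin protein of the high-mobility group A family, and TGFB1 is a cytokine that activates fibroblasts. The purpose of the design was to follow TGFB1-induced transcription with and without Hmga2.

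All 4 conditions share the same background. The cells came from C57BL/6 embryos at embryonic day 15.5, had been immortalized with SV40, and were starved overnight in medium with 1% FCS before water or TGFB1 was added. The Hmga2-/- samples carry the knock-out name in their titles, while their genotype field is spelled Hmga-/-. Each condition is represented by 1 library, and nothing in the labels ties the libraries to separate embryos or cultures. Therefore no comparison of 2 libraries carries a test, and the intervals given with it are 95% intervals that cover counting error of the reads only and compare libraries rather than conditions. The 1 test given, an additive fit over all 4 libraries, takes the difference between the genotypes in their response as its error, and not the spread between cultures.

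Chemokines fall into families named after the spacing of their first cysteines. The CC ligands Ccl2 and Ccl7 attract monocytes through the receptor Ccr2, Ccl5 attracts T cells and monocytes, and Ccl20 is the ligand of Ccr6 on lymphocytes and dendritic cells. Among the CXC ligands, Cxcl1 and Cxcl5 attract neutrophils through Cxcr2, Cxcl12 retains and guides Cxcr4-positive cells and is a typical product of stromal fibroblasts, and Cxcl14 is a homeostatic chemokine of epithelia and stroma. Cxcl16 and the CX3C ligand Cx3cl1 differ from the others because they are made as transmembrane proteins that metalloproteases release from the cell surface. Inflammatory chemokine genes are known to be switched on through κB sites, the DNA sequences bound by NF-kB.

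Promoter sequence was read for the members with an entry in the RefSeq promoter set (GRCm38.p6, the assembly also called mm10), which were Ccl20, Cx3cl1, Cxcl1, Cxcl12 and Cxcl14, 5 of the 10. In the 250 bases before the transcription start, the κB consensus was searched on both strands, and 3.90% of 32851 promoters held a match. Among the 5 members it was found in Cxcl1 and Ccl20, and these promoters are shown because the level of Cxcl1 was lower and that of Ccl20 higher with TGFB1, as described below. The Cxcl1 sequence is chr5:90890995-90891244 on the plus strand and the Ccl20 sequence is chr1:83116516-83116765 on the plus strand. Capitals mark the κB match, which in Cxcl1 consists of 2 overlapping matches, 1 on each strand, that begin 71 bases before the start, and in Ccl20 is read on the minus strand and begins 80 bases before the start.
Cxcl1: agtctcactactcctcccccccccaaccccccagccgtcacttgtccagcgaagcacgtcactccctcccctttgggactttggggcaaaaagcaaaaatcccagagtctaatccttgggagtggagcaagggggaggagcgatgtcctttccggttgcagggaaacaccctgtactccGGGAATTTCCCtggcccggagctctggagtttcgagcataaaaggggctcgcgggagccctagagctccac
Ccl20: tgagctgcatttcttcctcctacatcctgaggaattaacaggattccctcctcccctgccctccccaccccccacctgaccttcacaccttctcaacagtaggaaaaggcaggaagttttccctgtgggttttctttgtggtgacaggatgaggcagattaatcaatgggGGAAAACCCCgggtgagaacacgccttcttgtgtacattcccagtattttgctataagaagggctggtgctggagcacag
The letters TATAA, searched on both strands, were present in the windows of Ccl20 and Cx3cl1 and in 22.8% of all promoters. The letters CAGAC, known as a SMAD-binding element and searched on both strands, were present in 42.2% of all promoters and in 0 of these 5. A match or its absence in this window describes the letters only.

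The libraries were of similar depth, with 56140000 to 57300000 mapped reads each as recovered from the table. Hmga2 itself, the gene targeted by the knock-out, had an RPKM (reads scaled to transcript length and to the mapped reads of the library) of 14.8 without and 40.7 with TGFB1 in Hmga2+/+ MEF, and of 0 in both Hmga2-/- libraries. All 10 fibroblast markers checked reached 1 RPKM in at least 1 library, with Col1a1 between 272 and 363 RPKM. Lum did so only in Hmga2+/+ Ctrl (1.08 RPKM) and lay between 0.246 and 0.708 RPKM elsewhere. Of 11 leukocyte markers only Cd68 reached 1 RPKM (1.25 to 1.63 RPKM), the summed level of the list was 1.86 to 2.41 RPKM per library, Ptprc stayed at or below 0.007 RPKM, and Cd3e and Tyrobp were at 0 in every library. The endothelial genes Kdr (1.11 to 7.39 RPKM) and Tek (0.33 to 5.65 RPKM) were read in the libraries, whereas the defining genes Pecam1 and Cdh5 stayed below 0.05 RPKM and Tie1 was at 0. None of 6 epithelial and 4 skeletal muscle markers reached 1 RPKM. In bulk RNA, fewer expressing cells and less RNA per cell cannot be told apart.

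On the RPKM scale, which corrects for transcript length, the members spanned from 0 RPKM for Ccl20 to 35.6 RPKM for Cxcl12, and 9 of the 10 were at or above 1 RPKM in every library. Without TGFB1, Cxcl12 was the most abundant member in both genotypes, followed by Cxcl5, and Ccl20 was the lowest. In Hmga2+/+ Ctrl the order after Cxcl12 and Cxcl5 was Ccl5, Ccl2, Cxcl1, Cx3cl1, Cxcl16, Cxcl14 and Ccl7, and 3 neighbouring pairs in it did not differ beyond counting error: Cxcl1 and Cx3cl1, Cxcl16 and Cxcl14, and Cxcl14 and Ccl7. In Hmga2-/- Ctrl the order was Cxcl12, Cxcl5, Ccl2, Ccl5, Cxcl1, Ccl7, Cxcl14, Cx3cl1, Cxcl16 and Ccl20, where Ccl2 and Ccl5 as well as Cx3cl1 and Cxcl16 lay within counting error of each other.

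With TGFB1 the order was different. Ccl2 stood at the top, beside Cxcl12 in Hmga2+/+ MEF (15.5 and 15.7 RPKM, within counting error) and above it in Hmga2-/- MEF (21.4 and 18.6 RPKM). This rank holds only for the longest Cxcl12 transcript, which stood for the gene. The shorter Cxcl12 transcripts, of 3166 and 1873 bases, were read at 22.5 and 28.8 RPKM in Hmga2+/+ TGFB1. In Hmga2-/- TGFB1 they were read at 27.2 and 34.8 RPKM, so they lay above Ccl2 in both TGFB1 libraries. Cxcl14, which ranked 8 in Hmga2+/+ Ctrl, ranked 3 in Hmga2-/- TGFB1. The summed level of the 10 members was 92.8 RPKM in Hmga2+/+ Ctrl, 73.5 RPKM in Hmga2+/+ TGFB1, 99.5 RPKM in Hmga2-/- Ctrl and 87.1 RPKM in Hmga2-/- TGFB1. The lower total in each TGFB1 library rests on Cxcl12 alone, at 35.6, 15.7, 31.9 and 18.6 RPKM in the same order. Without Cxcl12 the total was not lower with TGFB1 in either genotype.

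**Figure D1:**
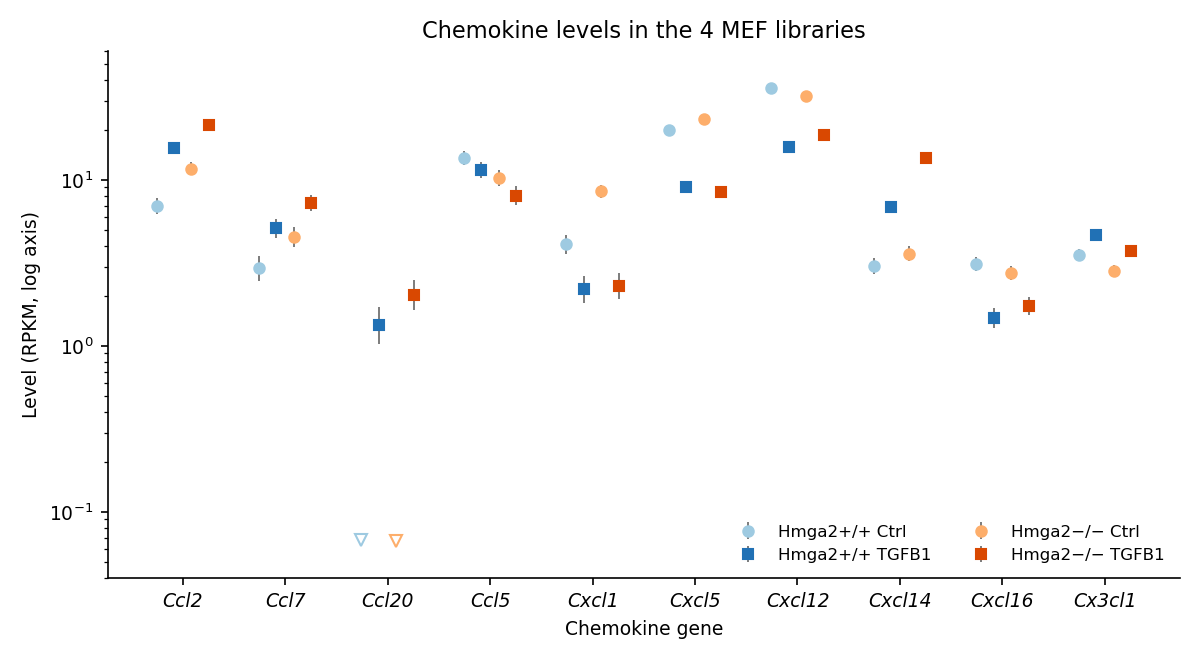
Level of each chemokine gene in RPKM (log axis) in the 4 libraries, circles for Ctrl and squares for TGFB1, blue for Hmga2+/+ and orange for Hmga2-/-, with 95% counting intervals. Open triangles stand at the level that 3 reads would give and mark the Ccl20 values of 0 and 1 read in the Ctrl libraries; Cxcl12 reached 35.6 RPKM, and Ccl2, Ccl7, Ccl20 and Cxcl14 were higher with TGFB1 in both genotypes.

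To compare libraries, a gene was counted as higher or lower at a ratio of 1.5-fold or more, among the 11025 genes that reached 1 RPKM in any library. All 10 members passed this filter, Ccl20 through its TGFB1 libraries only. In Hmga2+/+ MEF, 4 members were higher with TGFB1 (Ccl2, Ccl7, Ccl20 and Cxcl14) and 4 were lower (Cxcl1, Cxcl5, Cxcl12 and Cxcl16), while 11.7% of all genes were higher and 17.1% lower. In Hmga2-/- MEF, Ccl2, Ccl7, Ccl20 and Cxcl14 were again higher and Cxcl1, Cxcl5, Cxcl12 and Cxcl16 lower, 4 each way, against 13.4% and 15.5% of all genes. Ccl5 and Cx3cl1 stayed under 1.5-fold in both genotypes. The median log2 change of the members was 0.08 in Hmga2+/+ and 0.02 in Hmga2-/- MEF, next to -0.05 and 0.01 over all genes, and without Ccl20 it was -0.23 and -0.36 over 9 members.

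Ccl2, the main monocyte chemoattractant, was read at 6.98 RPKM in Hmga2+/+ Ctrl, 15.5 RPKM in Hmga2+/+ TGFB1, 11.7 RPKM in Hmga2-/- Ctrl and 21.4 RPKM in Hmga2-/- TGFB1, on 314 to 975 reads. The lowest value was that of the Hmga2+/+ Ctrl library and the highest that of the Hmga2-/- TGFB1 library. TGFB1 was accompanied by a 2.22-fold higher level in Hmga2+/+ MEF (log2 change 1.15, interval 0.95 to 1.34) and a 1.83-fold higher level in Hmga2-/- MEF (log2 change 0.87, interval 0.71 to 1.02). The gene lies at chr11:82035577-82037452 on the plus strand, and an annotated gene on the opposite strand, Gm17268, overlaps it; the library kit keeps strand and only same-strand transcripts were used.

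Ccl7, a further Ccr2 ligand, lies 8.26 kb beyond the end of Ccl2 at chr11:82045712-82047523 and had the same order of libraries at a lower level. Its level was 2.94 RPKM in Hmga2+/+ Ctrl, 5.10 RPKM in Hmga2+/+ TGFB1, 4.54 RPKM in Hmga2-/- Ctrl and 7.28 RPKM in Hmga2-/- TGFB1. The ratio of TGFB1 to Ctrl was 1.74-fold in Hmga2+/+ MEF (log2 change 0.80, interval 0.48 to 1.12) and 1.60-fold in Hmga2-/- MEF (0.68, interval 0.42 to 0.94). The CC cluster that starts with Ccl2 holds 6 ligand genes over 144.2 kb, and Ccl2 and Ccl7 were the 2 that reached 1 RPKM. Ccl11, Ccl12, Ccl8 and Ccl1, which follow them, were at 0.131 RPKM or less in all 4 libraries.

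Ccl20, which attracts Ccr6-positive lymphocytes and dendritic cells, was nearly absent from the Ctrl libraries. It was listed at 0 RPKM (0 reads) in Hmga2+/+ Ctrl, 1.34 RPKM (61 reads) in Hmga2+/+ TGFB1, 0.022 RPKM (1 read) in Hmga2-/- Ctrl and 2.03 RPKM (92 reads) in Hmga2-/- TGFB1. In Hmga2+/+ MEF the level with TGFB1 was at least 19.9-fold higher, taking 3 reads in the Ctrl library as the limit that a count of 0 allows. In Hmga2-/- MEF the ratio was 92.4, with a counting interval of 16.0 to 3652 because it rests on 1 Ctrl read. Despite this ratio Ccl20 remained among the least abundant members with TGFB1, within counting error of Cxcl16 in both genotypes.

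Ccl5, which attracts T cells and monocytes, was the most abundant CC ligand of the group in Hmga2+/+ Ctrl (13.5 RPKM). It was read at 11.5 RPKM in Hmga2+/+ TGFB1, 10.3 RPKM in Hmga2-/- Ctrl and 8.05 RPKM in Hmga2-/- TGFB1. The TGFB1 libraries were lower than their Ctrl libraries by less than 1.5-fold, with a log2 change of -0.23 (interval -0.44 to -0.02) in Hmga2+/+ and -0.36 (interval -0.61 to -0.11) in Hmga2-/- MEF. Ccl5 lies at chr11:83525779-83530518 on the minus strand, away from the Ccl2 cluster on the same chromosome.

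Cxcl1, a neutrophil attractant of the Cxcr2 ligand group, was lower with TGFB1 in both genotypes and had the lowest ratio of the 10 members in Hmga2-/- MEF. Its level was 4.08 RPKM in Hmga2+/+ Ctrl, 2.19 RPKM in Hmga2+/+ TGFB1, 8.51 RPKM in Hmga2-/- Ctrl and 2.29 RPKM in Hmga2-/- TGFB1, on 118 to 454 reads. The Hmga2-/- Ctrl library stood above the other 3, and the TGFB1 libraries of both genotypes lay within counting error of each other. The log2 change with TGFB1 was -0.90 (interval -1.24 to -0.57) in Hmga2+/+ and -1.89 (interval -2.19 to -1.60) in Hmga2-/- MEF. The κB match printed above lies in the promoter of this gene, whose level was lower with TGFB1, and also in that of Ccl20, whose level was higher.

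Cxcl5, the other Cxcr2 ligand of the group, was read at 20.0 RPKM in Hmga2+/+ Ctrl, 9.12 RPKM in Hmga2+/+ TGFB1, 23.4 RPKM in Hmga2-/- Ctrl and 8.41 RPKM in Hmga2-/- TGFB1. Both Ctrl libraries lay above both TGFB1 libraries. The log2 change was -1.13 (interval -1.25 to -1.01) in Hmga2+/+ and -1.48 (interval -1.59 to -1.36) in Hmga2-/- MEF. Cxcl5 (chr5:90759298-90761625) and Cxcl1 (chr5:90891245-90893115) bound most of a CXC cluster of 7 ligand genes over 146.6 kb, of which 3 reached 1 RPKM. The third was Cxcl15, a neutrophil chemokine that is no member, at 3.48 RPKM in Hmga2+/+ Ctrl, 0.914 RPKM in Hmga2+/+ TGFB1, 7.38 RPKM in Hmga2-/- Ctrl and 0.919 RPKM in Hmga2-/- TGFB1, which was the same order of Ctrl and TGFB1 libraries as in Cxcl1. The remaining genes of the cluster, Ppbp, Pf4, Cxcl3 and Cxcl2, were at 0.21 RPKM or less.

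**Figure D2:**
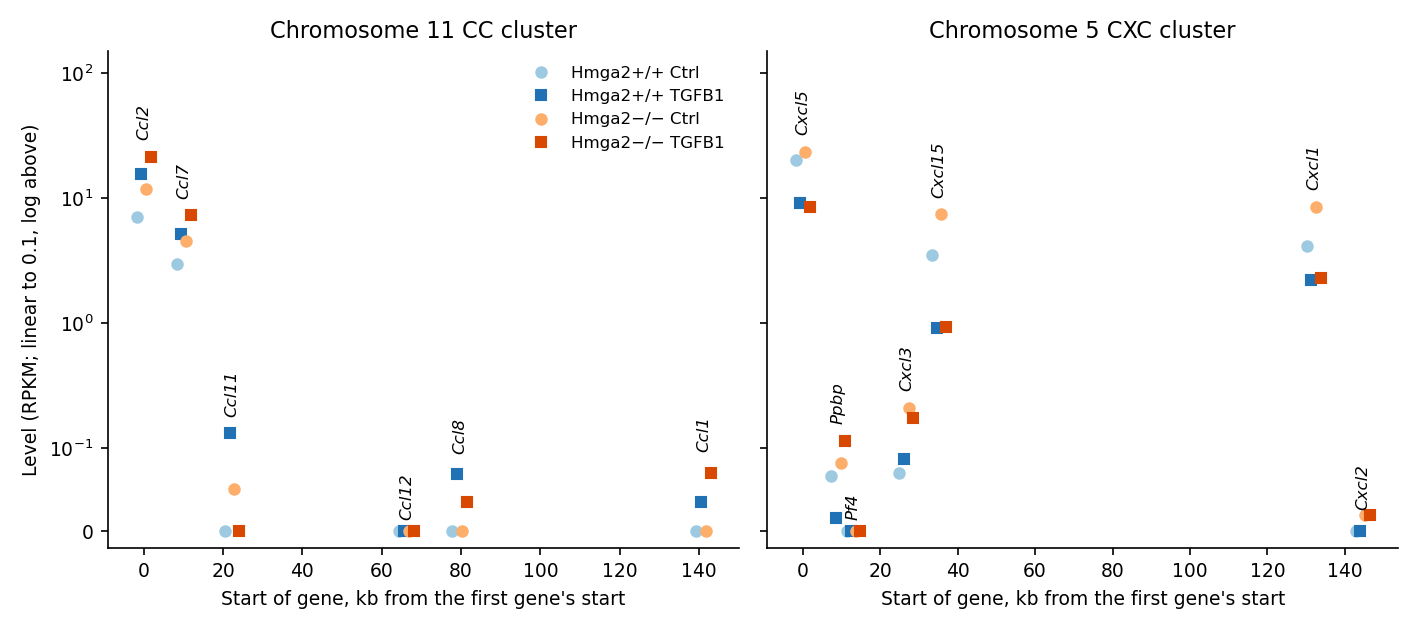
Level of the ligand genes of the Ccl2 cluster (left) and the Cxcl5 cluster (right) in RPKM (linear up to 0.1 and log above) against the distance of each gene's start from the start of the first gene in kb, with 1 symbol per library. Ccl2 and Ccl7 were higher with TGFB1 (squares) and Cxcl5, Cxcl15 and Cxcl1 lower, while the other genes of both clusters stayed at 0.21 RPKM or less.

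Cxcl12, which retains Cxcr4-positive cells in stromal tissue, was read at 35.6 RPKM in Hmga2+/+ Ctrl, 15.7 RPKM in Hmga2+/+ TGFB1, 31.9 RPKM in Hmga2-/- Ctrl and 18.6 RPKM in Hmga2-/- TGFB1. With 5108 to 11320 reads per library it was the most deeply covered member, and its intervals were the narrowest. The level with TGFB1 was lower in both genotypes, with a log2 change of -1.18 (interval -1.23 to -1.13) in Hmga2+/+ and -0.78 (interval -0.83 to -0.73) in Hmga2-/- MEF.

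The size of the Cxcl12 difference depended on the transcript. The gene (chr6:117168535-117181368, plus strand) has 3 annotated transcripts of 1873, 3166 and 5663 bases that share their start, so that reads from shared exons count for each of them. The shortest, which ends at position 117175069, was read at 98.1, 28.8, 87.6 and 34.8 RPKM in Hmga2+/+ Ctrl, Hmga2+/+ TGFB1, Hmga2-/- Ctrl and Hmga2-/- TGFB1, giving log2 changes with TGFB1 of -1.77 (Hmga2+/+) and -1.33 (Hmga2-/-). The transcript of 3166 bases gave -1.27 and -0.84. The 2497 bases that the longest transcript holds beyond it carried 11.9, 7.17, 10.6 and 7.58 RPKM in the same order of libraries, with a log2 change of -0.73 (interval -0.85 to -0.62) in Hmga2+/+ and -0.48 (interval -0.59 to -0.37) in Hmga2-/- MEF. In every one of these measures the level with TGFB1 was lower in both genotypes. The 4 annotated transcripts of Cxcl16 gave log2 changes of -1.04 to -1.07 in Hmga2+/+ and -0.65 to -0.66 in Hmga2-/- MEF. They counted nearly the same reads (409 to 425 in Hmga2+/+ Ctrl), so their values could hardly differ.

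**Figure D3:**
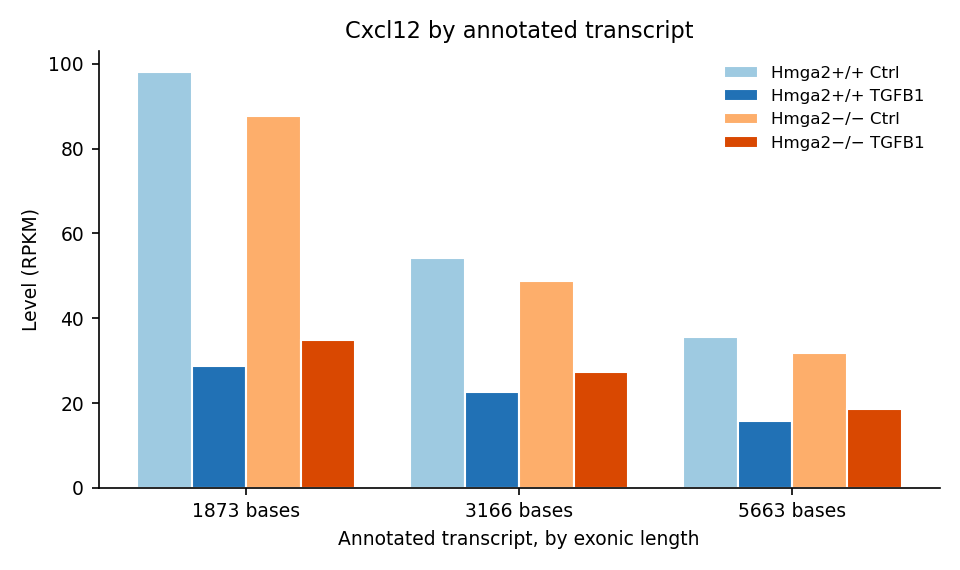
Level of the 3 annotated Cxcl12 transcripts in RPKM, ordered by exonic length, in the 4 libraries (1 bar per library). The shortest transcript was at 98.1 and 28.8 RPKM in Hmga2+/+ and at 87.6 and 34.8 RPKM in Hmga2-/- MEF, and the bars of the longest transcript span 15.7 to 35.6 RPKM.

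Cxcl14, a chemokine of resting epithelium and stroma, had the highest ratio of TGFB1 to Ctrl among the 9 members with more than 3 reads in all 4 libraries. Its level was 3.04 RPKM in Hmga2+/+ Ctrl, 6.90 RPKM in Hmga2+/+ TGFB1, 3.59 RPKM in Hmga2-/- Ctrl and 13.6 RPKM in Hmga2-/- TGFB1. The Ctrl libraries were close together and the Hmga2-/- TGFB1 library stood above the other 3. The level was 2.27-fold higher with TGFB1 in Hmga2+/+ MEF (log2 change 1.18, interval 0.99 to 1.38) and 3.79-fold higher in Hmga2-/- MEF (1.92, interval 1.76 to 2.09). In Hmga2+/+ MEF the interval overlapped that of Ccl2 (log2 change 1.15, interval 0.95 to 1.34). Cxcl14 lies at chr13:56288643-56296551 on the minus strand.

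The transmembrane ligands lay on opposite sides of Ctrl. Cxcl16, the ligand of Cxcr6 and a scavenger receptor, was read at 3.10 RPKM in Hmga2+/+ Ctrl, 1.48 RPKM in Hmga2+/+ TGFB1, 2.75 RPKM in Hmga2-/- Ctrl and 1.74 RPKM in Hmga2-/- TGFB1. Its log2 change was -1.07 (interval -1.31 to -0.82) in Hmga2+/+ and -0.66 (interval -0.90 to -0.42) in Hmga2-/- MEF. Cx3cl1, also called fractalkine, was read at 3.55 RPKM in Hmga2+/+ Ctrl, 4.66 RPKM in Hmga2+/+ TGFB1, 2.83 RPKM in Hmga2-/- Ctrl and 3.72 RPKM in Hmga2-/- TGFB1. Its TGFB1 libraries were 1.31-fold above Ctrl in each genotype, with log2 changes of 0.39 (interval 0.24 to 0.55) and 0.39 (interval 0.23 to 0.57), under the 1.5-fold limit. Adam10 (31.1 to 34.7 RPKM) and Adam17 (17.0 to 18.6 RPKM), the metalloproteases known to release both ligands, differed by less than 1.5-fold between libraries.

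**Figure D4:**
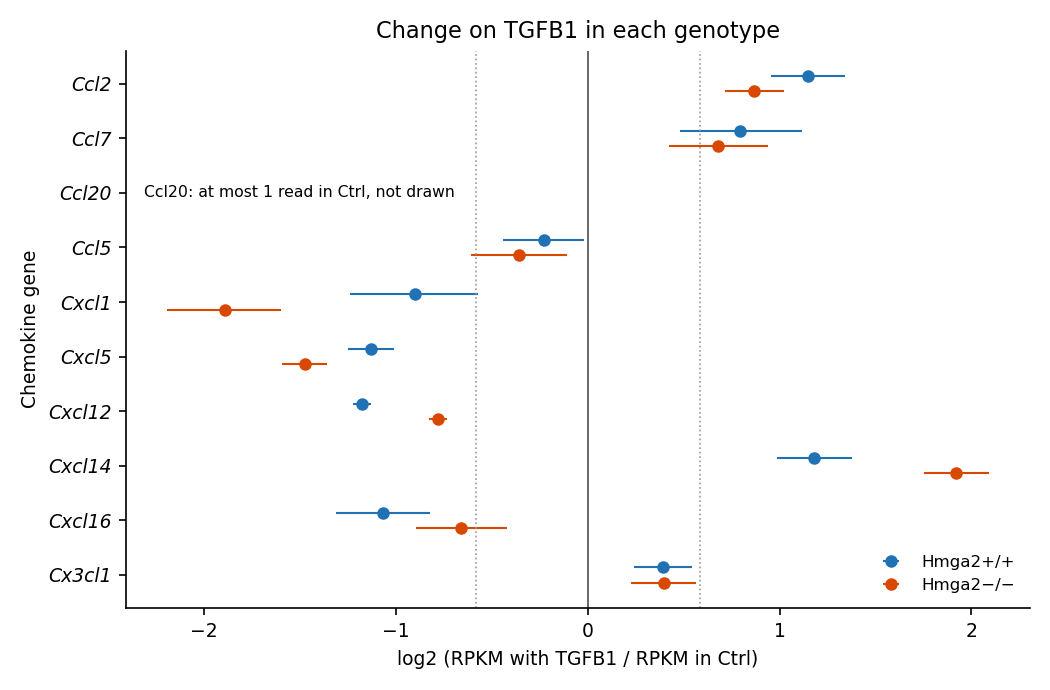
log2 ratio of the RPKM with TGFB1 to the RPKM in Ctrl for each chemokine gene in Hmga2+/+ (blue) and Hmga2-/- (orange) MEF, with 95% counting intervals; dotted lines mark 1.5-fold. The values drawn range from -1.89 for Cxcl1 to 1.92 for Cxcl14, both in Hmga2-/- MEF; Ccl20 is not drawn because its Ctrl libraries held 0 and 1 read.

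Next, the genotypes were compared within each condition. These comparisons use the same 4 libraries as the TGFB1 comparisons and are not independent of them. Without TGFB1, 4 members counted as higher in Hmga2-/- than in Hmga2+/+ MEF and 0 as lower, against 2.48% and 2.05% of all genes. Of these 4, Ccl20 rests on 1 read against 0 and gives no fold, which leaves Cxcl1 with 2.08-fold (log2 difference 1.06, interval 0.82 to 1.30), Ccl2 with 1.68-fold (0.75, interval 0.54 to 0.95) and Ccl7 with 1.54-fold (0.63, interval 0.30 to 0.95). The median log2 difference of the members was 0.23, with and without Ccl20, next to -0.02 over all genes.

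With TGFB1, 2 members were higher in Hmga2-/- MEF, Cxcl14 and Ccl20, and 0 were lower, against 3.34% and 2.28% of all genes. Cxcl14 was 1.97-fold higher (log2 difference 0.98, interval 0.85 to 1.11), whereas in Ctrl its difference was 0.24 (interval 0.02 to 0.46). Ccl20 was 1.52-fold higher (0.60, interval 0.12 to 1.09), just past the limit and on 61 and 92 reads. Ccl2 (0.47, interval 0.33 to 0.61) and Ccl7 (0.51, interval 0.27 to 0.76) remained higher in the Hmga2-/- library by less than 1.5-fold. For Cxcl1 the difference was 0.07 (interval -0.31 to 0.45), so that the genotypes differed in Ctrl and not beyond counting error with TGFB1.

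Ccl5 and Cx3cl1 were the members that lay lower in Hmga2-/- MEF in both conditions, each by less than 1.5-fold. The log2 difference of Ccl5 was -0.39 (interval -0.61 to -0.17) in Ctrl and -0.52 (interval -0.76 to -0.28) with TGFB1, and that of Cx3cl1 was -0.33 in both (intervals -0.50 to -0.16 and -0.48 to -0.18). Cxcl12 changed sides between conditions by small amounts, whereas for Cxcl5 the difference with TGFB1 lay within counting error of 0. Cxcl5 differed by 0.23 (interval 0.14 to 0.32) in Ctrl and -0.12 (interval -0.26 to 0.02) with TGFB1, and Cxcl12 by -0.16 (interval -0.20 to -0.12) in Ctrl and 0.24 (interval 0.18 to 0.29) with TGFB1. Cxcl16 differed by -0.17 (interval -0.38 to 0.03) in Ctrl and 0.23 (interval -0.04 to 0.51) with TGFB1, both within counting error of 0.

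**Figure D5:**
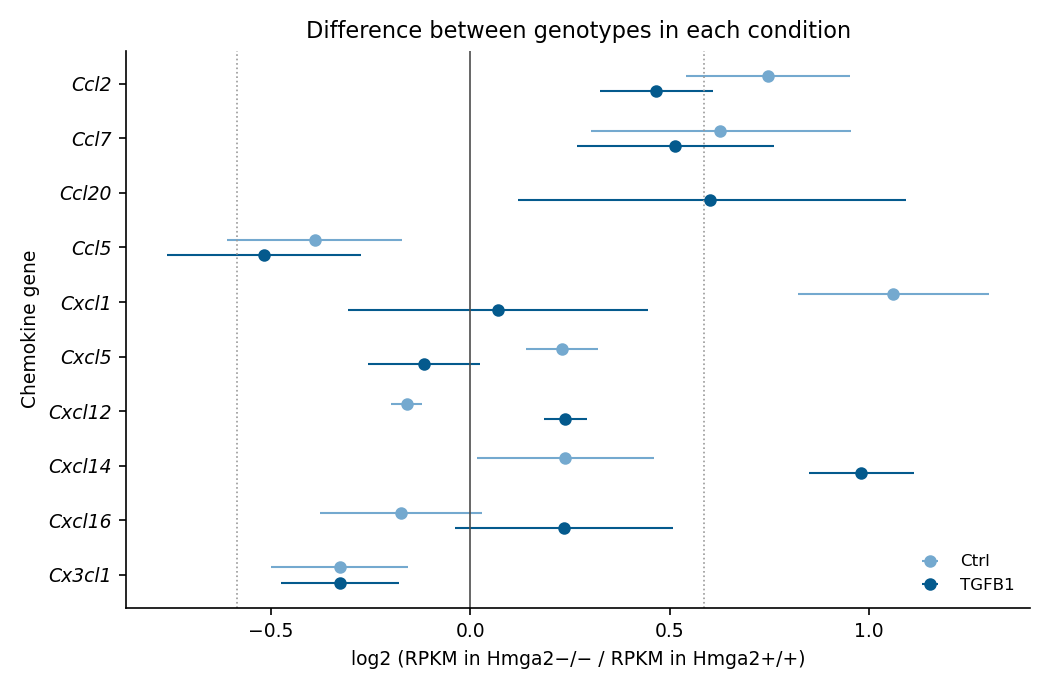
log2 ratio of the RPKM in Hmga2-/- to the RPKM in Hmga2+/+ MEF for each chemokine gene in Ctrl (light) and TGFB1 (dark), with 95% counting intervals; dotted lines mark 1.5-fold. Cxcl1 (1.06), Ccl2 (0.75) and Ccl7 (0.63) lay beyond 1.5-fold in Ctrl and Cxcl14 (0.98) and Ccl20 (0.60) with TGFB1; Ccl20 in Ctrl is not drawn because the libraries held 0 and 1 read.

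The difference between the genotypes in their TGFB1 response was then taken as the ratio of both folds. It was at least 1.5-fold higher in Hmga2-/- MEF for 1 member, Cxcl14, and at least 1.5-fold lower for 2, Cxcl1 and Ccl20, against 2.57% and 1.80% of all genes. The count for Ccl20 comes from 0 and 1 Ctrl read and gives no value. The log2 difference of the responses (Hmga2-/- minus Hmga2+/+) was 0.74 for Cxcl14 (interval 0.48 to 1.00) and -0.99 for Cxcl1 (interval -1.44 to -0.54). Cxcl14 had a larger ratio in Hmga2-/- MEF from Ctrl levels that were close together (3.04 and 3.59 RPKM), whereas Cxcl1 had a smaller ratio there from a higher Ctrl level to TGFB1 levels that were close together (2.19 and 2.29 RPKM).

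For the other members the responses differed by less than 1.5-fold between genotypes. Cxcl12 (0.40, interval 0.33 to 0.46) and Cxcl16 (0.41, interval 0.06 to 0.75) were less reduced in the Hmga2-/- libraries. Cxcl5 (-0.35, interval -0.51 to -0.18) was more reduced there, and Ccl2 (-0.28, interval -0.53 to -0.03) less elevated. Intervals that include 0 were found for Ccl5 (-0.13, interval -0.46 to 0.20), Ccl7 (-0.11, interval -0.53 to 0.30) and Cx3cl1 (0.00, interval -0.23 to 0.23). The median over the 9 members with a value was -0.11, next to 0.05 over all genes.

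The additive limma fit of log2(RPKM + 0.1), chosen after seeing the data, tested the TGFB1 effect and the genotype effect over all 4 libraries with 1 residual degree of freedom, supplemented by the spread shared among the 11025 genes. With TGFB1, 5 members were higher and 5 lower at an adjusted p below 0.05 (limma, Benjamini-Hochberg), but so were 28.8% and 30.8% of all genes. Their adjusted p ranged from 2.1e-07 for Cxcl5 (log2 change -1.29 ± 0.10, SE) to 0.011 for Ccl5 (-0.29 ± 0.09), with Ccl5 and Cx3cl1 (0.38 ± 0.11) again the smallest changes. Between genotypes, 3 members were higher in Hmga2-/- MEF, against 3.74% of all genes, and 1 was lower, against 2.13%. The higher ones were Ccl2 (0.60 ± 0.09, limma adjusted p = 0.0017), Ccl7 (0.56 ± 0.10, limma adjusted p = 0.0047) and Cxcl14 (0.60 ± 0.14, limma adjusted p = 0.024), and the lower one was Ccl5 (-0.45 ± 0.09, limma adjusted p = 0.0078). Cxcl1, whose genotypes were apart in Ctrl and close together with TGFB1, did not pass (0.55 ± 0.17, limma adjusted p = 0.090).

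Apart from the members, 28 other chemokine ligand genes were in the table and 3 of them reached 1 RPKM. Cxcl10, an interferon-induced T cell attractant, was read at 24.6, 33.5, 24.0 and 35.9 RPKM in Hmga2+/+ Ctrl, Hmga2+/+ TGFB1, Hmga2-/- Ctrl and Hmga2-/- TGFB1, above every member in the TGFB1 libraries and, in the Ctrl libraries, above every member except Cxcl12. In Hmga2-/- Ctrl it was close to Cxcl5 (24.0 and 23.4 RPKM), and no interval was taken for this pair. Ccl25 lay between 1.21 and 1.72 RPKM, and the third was Cxcl15. With TGFB1, 0 of the 3 were higher by 1.5-fold and 1, Cxcl15, was lower in each genotype. Of all genes, 11.7% were higher and 17.1% lower in Hmga2+/+, and 13.4% higher and 15.5% lower in Hmga2-/- MEF.

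None of the 18 chemokine receptor genes reached 1 RPKM, so the receptors of the members were at most weakly read in these cells. Ccr2, the receptor of Ccl2 and Ccl7, was at 0 in all 4 libraries, Cxcr2 had 1 read in 1 library, and Cxcr4, the receptor of Cxcl12, lay between 0.03 and 0.145 RPKM. Cxcr6, the receptor of Cxcl16, had the highest level of the list. It was named after its values were seen, and had 0, 32, 1 and 38 reads in Hmga2+/+ Ctrl, Hmga2+/+ TGFB1, Hmga2-/- Ctrl and Hmga2-/- TGFB1, up to 0.348 RPKM; nearly all of its reads were in the TGFB1 libraries, where its ligand was lower. Of 5 atypical receptors, which bind chemokines without the usual signalling, Ackr3, the scavenger of Cxcl12, reached 1 RPKM, with 1.84, 1.24, 2.30 and 1.66 RPKM in the same order of libraries.

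Among 6 proteases that cut chemokines, 4 reached 1 RPKM. Mmp14 was read at 193, 121, 211 and 131 RPKM in the same order of libraries and was the 1 gene past 1.5-fold among these 4, lower with TGFB1 in both genotypes. Of all genes, 17.1% were lower in Hmga2+/+ and 15.5% in Hmga2-/- MEF. Mmp2, a gelatinase that trims Cxcl12 and Ccl7, lay between 55.2 and 73.8 RPKM, and Dpp4 and Mmp9 stayed below 0.1 RPKM.

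Other inflammatory genes were read for comparison with the members. Beside the counts of each list below, 11.7% of all genes were higher and 17.1% lower with TGFB1 in Hmga2+/+ MEF. In Hmga2-/- MEF 13.4% were higher and 15.5% lower. Of 23 NF-kB and cytokine genes, 17 passed the filter, of which 5 were higher and 2 lower with TGFB1 in Hmga2+/+ and 4 higher and 1 lower in Hmga2-/- MEF. Ptgs2, the inducible cyclooxygenase, was read at 3.51, 45.6, 4.98 and 69.5 RPKM in Hmga2+/+ Ctrl, Hmga2+/+ TGFB1, Hmga2-/- Ctrl and Hmga2-/- TGFB1. In the same order, Lif, a cytokine of the interleukin 6 family, was read at 0.32, 3.17, 0.458 and 5.04 RPKM and Nfkbiz, an atypical member of the IkB family, at 3.18, 6.65, 3.18 and 8.16 RPKM, while Nfkbia, the inhibitor of NF-kB, was lower with TGFB1, at 11.2, 5.10, 9.25 and 6.17 RPKM. Il6 stayed at or below 0.156 RPKM. All 14 interferon response genes passed the filter, with 0 higher in either genotype, 10 lower in Hmga2+/+ and 9 lower in Hmga2-/- MEF; Ifit3 was read at 75.3, 32.5, 72.9 and 20.9 RPKM. Of 8 TGFB1 target genes, 7 were higher and 1, Tgfbi, was lower in both genotypes.

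Finally, for the 8 members that differed by at least 2-fold across the libraries, which leaves out Ccl5 and Cx3cl1, the genes with the most similar pattern were sought among the other 11024 genes, by the distance between centred profiles of log2(RPKM + 0.1), where 0 is an identical pattern. With 4 points per profile, close matches are a description only. For Ccl2 the nearest gene was Nrg1, a growth factor of the neuregulin family, at a distance of 0.021 and with 4.34, 9.63, 7.42 and 13.4 RPKM in Hmga2+/+ Ctrl, Hmga2+/+ TGFB1, Hmga2-/- Ctrl and Hmga2-/- TGFB1, followed by the collagen gene Col12a1 at 0.056. For Cxcl14 it was Adamts12 at 0.048 with 2.05, 4.76, 2.46 and 9.04 RPKM, followed by Wnt5a at 0.069 and Nox4 at 0.190. For Ccl20 it was Prdm1, a transcriptional repressor, at 0.164 with 0, 1.21, 0.021 and 2.18 RPKM.

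Among the other members searched, the nearest gene for Cxcl12 was Mapre3 at 0.035, for Cxcl16 Cln6 at 0.031, for Cxcl5 Sord at 0.072 and for Ccl7, which was higher with TGFB1, Iqgap2 at 0.086. Cxcl1 had no match as close, its nearest gene being Gm21811 at 0.139 and the next Pdlim2 at 0.177, and Cxcl15, its neighbour in the cluster, was not among its nearest 3.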

How the data were processed

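Gene expression of the 4 MEF libraries was taken from the table of RPKM values deposited by the authors, which has 1 column per condition. According to the methods and processing notes, total RNA was sequenced as strand-keeping single-end libraries, reads were trimmed with Trimmomatic and mapped to mm10 with HISAT2 (2.1.0), and HOMER made the RPKM; duplicates of 1 experiment are mentioned, and whether a column pools them is not given in the sources used here. The table's header names counting over exons and the methods counting over genes. Transcripts were assigned to symbols by GENCODE vM21 positions (mm10) on the same strand with at least 50% of their span covered (57708 of 63759), and the transcript with the longest gene body stood for each gene. Reads were recovered as RPKM times length times depth; all of the 1146 to 1181 low values tested per library came within 0.1 read of a whole number.

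Ratios of 2 libraries used an RPKM of 0.001 in place of 0 for counts past 1.5-fold, as in the methods, and exact 95% intervals from the reads elsewhere (scipy 1.17.1, numpy 2.4.6, pandas 2.3.3; Python 3.11.15). These intervals cover counting error only, since each condition has 1 library. The libraries have no molecular identifiers, so duplicate reads were counted as separate reads and the intervals may be too narrow even for counting error. No count test was run; limma 3.58.1 (R 4.3.3) gave an additive fit with genotype and TGFB1 as terms, chosen after seeing the data. The steps for the intervals and this fit were run on simulated data, with counting error only for the reads and independent noise for the fit. Duplicate reads, spread between cultures and a response that differs between genotypes were not simulated. The simulation therefore checks the calculation and cannot show that the intervals or adjusted p hold for these libraries. Outside the members, a gene was named if it reached 5 RPKM in a library and 2-fold in a comparison, at most 6 per list, plus markers, genes of the clusters and the 3 nearest patterns; receptors, ligands, proteases and Il6 below these limits were named after their values were seen. The members and lists were chosen with earlier results of these data known. Alternatives were pseudocounts of 0.1 and 1, rescaled libraries, another transcript per gene, a 2-fold limit, no filter on low RPKM and, chosen after seeing the data, a minimum of reads.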

Additional observations from a re-analysis of the deposited data

How the results depend on the processing

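The labels number no replicates, so no replicate was left out or used as a block; the fit over all 4 libraries pairs the conditions within genotype. Of 80 recomputed counts of members, 66 stayed within 1.5 times the reported count and 14 did not. Most of the 80 were counts past the fold limit. Leaving out the filter on low RPKM could not change a count of members, since all 10 had passed it. Counts were compared by number only, so a count can stay the same while the members in it differ. Counts from the additive limma fit, which has no fold limit, and counts of members with at least 1 RPKM in every library were included. Each effect of this fit was entered for both comparisons that it covers. The additive limma fit gives 1 genotype effect for both conditions together and no result per condition. In it, 1 member (Ccl5) was lower in Hmga2-/- MEF, whereas 0 had passed the 1.5-fold limit in either condition. With a 2-fold limit, 2 members instead of 4 were higher and 2 instead of 4 lower with TGFB1 in Hmga2-/- MEF, 2 instead of 4 were higher in Hmga2-/- Ctrl than in Hmga2+/+ Ctrl, 0 instead of 2 were higher in Hmga2-/- TGFB1, and the TGFB1 response was higher in Hmga2-/- MEF for 0 instead of 1 and lower for 1 instead of 2. With a pseudocount of 1, 2 instead of 4 were higher in Hmga2-/- Ctrl. With a pseudocount of 0.1 or 1, 1 instead of 2 was higher in Hmga2-/- TGFB1, and the response was lower in Hmga2-/- MEF for 1 instead of 2. For this difference of responses, the minimum of reads chosen after seeing the data requires reads in all 4 libraries and also left 1 of these 2, as it removes Ccl20. Of 184 recomputed single-gene changes, 3 changed sign, all of the Cx3cl1 difference of responses near 0; 175 stayed within their counting interval, and those of Cxcl12 moved to -1.77 and -1.33 with its highest transcript and to -1.09 and -0.73 after rescaling. With a pseudocount of 1 the values were -1.53 for Cxcl1 in Hmga2-/- MEF, -1.13 for Cxcl12 and -0.73 for Cxcl16 in Hmga2+/+ MEF, and 0.97 and 1.67 for Cxcl14. The number of all genes past the limit with TGFB1 in Hmga2+/+ MEF was 1294 higher and 1885 lower, 545 and 790 with a 2-fold limit, and 2843 and 4741 without the filter on low RPKM; in Hmga2-/- MEF it was 1477 and 1709, 628 and 764, and 3142 and 4538. Between genotypes it was 273 higher and 226 lower in Ctrl and 368 and 251 with TGFB1, which became 77 and 77 and 102 and 78 with a 2-fold limit, and 2044 and 2093 and 2262 and 1970 without the filter. A pseudocount of 1 left 1214 and 1104 genes lower with TGFB1 in Hmga2+/+ and Hmga2-/- MEF, and 115 higher and 93 lower in Ctrl and 178 higher and 79 lower with TGFB1 between genotypes. For the difference of the responses, 283 higher and 199 lower became 69 and 58, 2709 and 2478, and 98 and 74 under these 3 settings. The cause of these shifts was not tested. Depth limits Ccl20 in the Ctrl libraries, where 0 and 1 read were counted for the transcript used.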
